A study of Rattus norvegicus with 18 samples.

Results

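The comparison was between rat astrocytes that received interferon beta (IFNβ) together with TIC, a cocktail that holds TNFα, C1q and IL1α, and control astrocytes that received PBS. Its 6 libraries, 3 of each group, were chosen by their labels out of 18 libraries in 6 groups, and 10296 of 10431 named genes were compared, those with 1 FPKM or more in at least 3 of the 18 libraries. All cells were primary astrocytes purified by immunopanning and were kept 24 h with the agents, and the rats were of postnatal day 5. Per the labels, IFNβ was given at 1000 U/ml, and TIC held TNFα at 30 ng/ml, C1q at 40 ng/ml and IL1α at 3 ng/ml. The same labels give the groups set beside it the matching agents: IFNβ alone (1000 U/ml), TIC alone, and TIC with 3 ng/ml interferon gamma (IFNγ). The legend of the deposited workbook instead gives 400 ng/ml for C1q, 1000 U/ml for IFNγ and 3 ng/ml for IFNβ, which leaves these doses uncertain. Gene levels are FPKM, fragments scaled to transcript length and library size, as the authors deposited them. A log2 change is the difference between group means of log2(FPKM + 1), given with its standard error (SE), and understates the change of genes at low levels. The verbs rose and fell stand for genes whose Benjamini-Hochberg adjusted p of limma's moderated test, taken over all 10296 genes, was under 0.05. Where a gene is given library by library, its control and combined libraries did not overlap unless that is said. Whether the libraries of a group stem from different animals or cultures is not stated, and the p-values therefore speak only to the spread between libraries, which may be technical. In libraries of whole cultures, fewer cells of a type and less RNA per cell cannot be told apart.

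Type I interferons such as IFNβ bind the IFNAR1 and IFNAR2 receptor chains and act through JAK kinases on STAT2, IRF9 and their partners, which bind interferon-stimulated response elements in the promoters of antiviral genes. TNFα and IL1α act largely through NF-κB, which drives chemokine, cytokine and acute phase genes and its own inhibitors. The TIC cocktail is known as a microglial signal that turns cultured rodent astrocytes into a reactive state, with loss of some of their normal functions.

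Promoters of 8 genes that rose are shown because they carry the letters that these pathways read, as far as a search of the bases just upstream of the annotated start can tell. They come from RefSeq (assembly GRCr8), in gene orientation and 5′ to 3′, ending at the base before the start. Capitals in Ifit3, Irf7, Gbp2 and the first run of Cxcl10 mark the interferon-stimulated response element core, which is GAAA, a pair of any bases and GAAA again, on either strand. Capitals elsewhere mark the NF-κB consensus, and in Cxcl1 a pair of overlapping matches.
Ifit3, chr1:241527226-241527325, strand plus: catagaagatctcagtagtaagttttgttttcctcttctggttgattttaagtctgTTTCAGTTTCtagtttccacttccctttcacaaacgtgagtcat
Irf7, chr1:205800024-205800123, strand minus: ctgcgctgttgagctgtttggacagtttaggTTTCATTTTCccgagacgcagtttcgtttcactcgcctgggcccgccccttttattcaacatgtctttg
Gbp2, chr2:234005627-234005726, strand plus: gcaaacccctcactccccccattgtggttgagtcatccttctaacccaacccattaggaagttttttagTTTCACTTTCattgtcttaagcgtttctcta
Cxcl10, chr14:15988816-15989065, strand plus: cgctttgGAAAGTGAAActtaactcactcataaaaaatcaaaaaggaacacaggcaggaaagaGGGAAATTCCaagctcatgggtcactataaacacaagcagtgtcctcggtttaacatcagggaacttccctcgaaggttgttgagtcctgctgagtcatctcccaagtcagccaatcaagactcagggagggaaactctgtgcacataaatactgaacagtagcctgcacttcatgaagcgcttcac
Cxcl11, chr14:15973628-15973727, strand plus: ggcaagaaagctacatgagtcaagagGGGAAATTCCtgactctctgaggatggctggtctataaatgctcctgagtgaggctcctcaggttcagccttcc
Cxcl1, chr14:17479322-17479421, strand minus: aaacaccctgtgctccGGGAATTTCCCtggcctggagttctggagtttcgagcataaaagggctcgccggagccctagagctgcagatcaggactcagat
Nfkbia, chr6:78597073-78597172, strand minus: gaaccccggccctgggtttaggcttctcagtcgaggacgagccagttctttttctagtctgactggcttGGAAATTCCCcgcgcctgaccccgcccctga
Ubd, chr20:1392686-1392785, strand minus: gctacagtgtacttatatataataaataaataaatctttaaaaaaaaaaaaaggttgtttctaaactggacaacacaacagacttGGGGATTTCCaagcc
In windows of 300 bases, 250 before and 50 after the start, the response element core stood in 14.2% of 492 matched genes whose log2 change was at least 1 upward. It stood in 0.949% of 843 matched genes that fell as far, in 2.88% of 7840 tested genes with a window, and in 3.74% of all 24206 windows whose symbol is unique. The NF-κB consensus stood in 13.2% of those that rose, 5.46% of those that fell, 5.1% of the tested genes and 4.09% of all windows. These shares describe letters, not occupied sites, and the genes shown were picked with their values known.

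The combined treatment moved most of the measured transcriptome. Of 10296 genes, 1987 rose (19.3%) and 4408 fell (42.8%), together 62.1% of all genes. Counts of list members against control below are to be read against these shares. By at least 1 log2 unit, 662 rose (6.43%) and 1113 fell (10.8%). The median log2 change over all genes was -0.20. Scaling the libraries by median ratios, which brings that median to 0.00, gave 3106 genes that rose and 3028 that fell, so the excess of falls rests on the scaling. Genes that complete a count of 5 or fewer below were named after their values were seen. The authors' deposited table, made with its own scaling, calls 3088 of the same genes higher and 2704 lower at an adjusted p under 0.05. A small log2 change is therefore read here against -0.20, not against 0. Both groups carried the defining astrocyte genes Gfap, Gja1, S100b and Aldh1l1 at the levels given with each. Within the groups, libraries correlated at 0.982 to 0.989 across genes on the log2 scale, and control with combined libraries at 0.858 to 0.879. Libraries summed to 505768 to 542909 FPKM over all 18, and listed 81 to 180 genes at 0, which may be failed estimates.

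**Figure D1:**
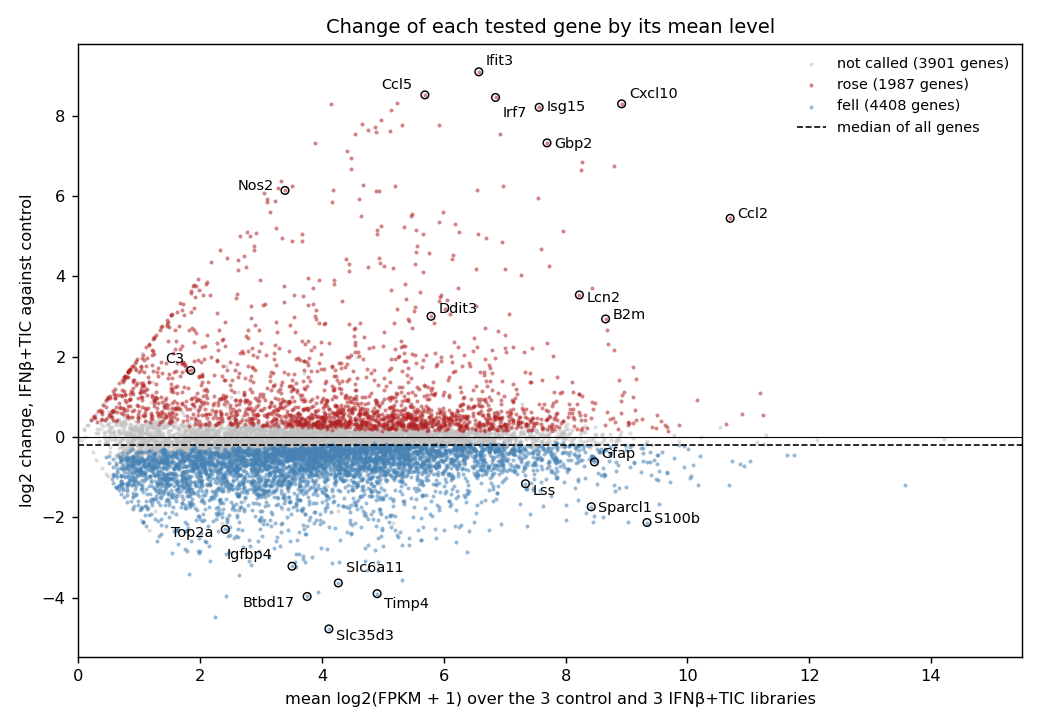
Log2 change with IFNβ and TIC against control (vertical axis) against the mean of log2(FPKM + 1) over the 6 libraries (horizontal axis), with each of 10296 genes as a point, called genes in colour and some genes named in the text labelled. The dashed line is the median over all genes, -0.20; among the labelled genes, the highest are antiviral and chemokine genes and the lowest Slc35d3, Btbd17 and Timp4.

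Most receptors and relays of the interferon pathway rose. Of 12 receptor, JAK and STAT genes tested, 10 rose and 1 fell, with a median log2 change of 0.90. Stat2, a factor of type I signals, stood at 36.2, 39.5 and 41.0 FPKM in the control libraries and at 247, 253 and 279.7 FPKM with both stimuli. The groups were far apart, with a log2 change of 2.71 (SE 0.07, adjusted p = 6.05e-16). IFNβ alone gave 301 ± 15.8 FPKM (SD, n = 3; log2 difference -0.21, SE 0.07, adjusted p = 0.0138). That difference did not pass the test with median-ratio scaling (-0.13 on the log2 scale), in a fit of only these groups (-0.21), or without combined library 1 (-0.18) or 2 (-0.20) or IFNβ library 1 (-0.17). Socs1, a feedback inhibitor of JAK kinases, rose from 3.77 to 29.8 FPKM.

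Ifnar1, which encodes a chain of the receptor for IFNβ itself, was the only member of that list to fall. Its level was 18.7, 22.8 and 19.2 FPKM in the controls and 0.229, 0.471 and 0.397 FPKM in the combined libraries. The groups did not overlap, and the log2 change was -3.96 (SE 0.92, adjusted p = 0.00123). With IFNβ alone the 3 libraries stood at 15.4, 14.9 and 12.3 FPKM, and with TIC alone at 0.557, 32.4 and 25.3 FPKM. A single TIC library thus lay as low as the combined libraries while the other two lay above every control. The SE pools the spread within all 6 groups and is wide through such libraries, and whether the low values are of the transcript or of its quantification was not tested. The authors' deposited table gives Ifnar1 a log2 change of -0.54 for the same groups, with an adjusted p of 0.442, so the fall is not called there. Exoc7, a subunit of the exocyst, had a like pattern: it was listed at 0 in all 3 combined libraries and stood at 19.7, 13.7 and 35.6 FPKM in the controls, and 1 of 3 IFNβ and 2 of 3 TIC libraries were also listed at 0. For it the authors' deposited table has a log2 change of 0.85 (adjusted p = 0.147), the opposite sign of the -4.48 found here, so no direction is read for this gene.

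The interferon regulatory factors carried some of the largest rises. Of 8 tested, 6 rose and only Irf3, the factor that starts interferon production, fell, by 0.37 on the log2 scale, a fall that did not pass the test with median-ratio scaling (-0.16) or without control library 3 (-0.25). Irf7, which drives further production of type I interferons, went from 8.02, 5.47 and 3.0 FPKM to 1984, 2153 and 2356 FPKM, a log2 change of 8.45 (SE 0.23, adjusted p = 2.63e-15). Every combined library was far above every control. Irf1, which responds to both interferons and to NF-κB, rose from 17.4 to 206 FPKM and Irf9, the DNA-binding partner of STAT2, from 20.3 to 151 FPKM. Irf5, a factor of inflammatory gene programmes, stood at 0.533, 0.27 and 0.383 FPKM in controls and 27.3, 31.6 and 32.5 FPKM with both stimuli, a log2 change of 4.50 (SE 0.13, adjusted p = 6.30e-15). It was also above IFNβ alone (4.47 FPKM, log2 difference 2.52, SE 0.13, adjusted p = 6.63e-11) and TIC alone (4.0 FPKM, log2 difference 2.65, SE 0.13, adjusted p = 2.39e-11).

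Antiviral effector genes rose nearly throughout. Of 32 tested, 30 rose and 0 fell, with a median log2 change of 5.30. Ifit3, whose protein works with IFIT1 in binding viral RNA, had the highest log2 change of the genes named by rank. It stood at 7.29, 4.19 and 0.578 FPKM in the controls and 2186, 2179 and 2316 FPKM with both stimuli, a log2 change of 9.09 (SE 0.40, adjusted p = 2.73e-12). Ifit1 and Ifit2, of the same family, rose by 8.14 and 7.76 on the log2 scale, and Oas1a, an enzyme that senses double-stranded RNA, by 7.79. Near-identical copies exist in the Ifit and Oas families, so the split of reads among their members is uncertain. Mx1, a GTPase that traps viral particles, passed the test in neither direction. It stood at 2.77, 1.44 and 0.366 FPKM in controls and 0.807, 0.37 and 0.578 FPKM with both stimuli, and the log2 change was -0.56 (SE 0.87, adjusted p = 0.594). The groups overlapped, and the libraries with IFNβ alone were spread over 0.276, 48.5 and 36.5 FPKM.

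The same held for the ubiquitin-like modifier ISG15 and its enzymes, of which 4 of 4 rose. Isg15 itself reached 2922, 3256 and 3629 FPKM from 13.2, 10.6 and 7.15 FPKM, a log2 change of 8.21 (SE 0.17, adjusted p = 5.77e-17). Usp18, the protease that removes ISG15 and damps the type I receptor, rose by 7.77, Uba7, which activates ISG15, by 5.07 and Ube2l6, which conjugates it, by 2.01 on the log2 scale. In the list of nucleic acid sensors, which also holds other genes such as Tlr2 and Tlr4, 9 of 11 rose. Tlr4, the endotoxin receptor, fell by 0.71 and Mavs, the adaptor of RIG-I, by 0.54 on the log2 scale. The largest rises were of the RIG-I family, with Dhx58 from 1.95 to 224 FPKM and Ddx58 (RIG-I) from 5.89 to 138 FPKM. Tlr2, a receptor for bacterial lipoproteins, rose from 2.41 to 39.0 FPKM.

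Guanylate-binding and immunity-related GTPases, which attack intracellular parasites and their vacuoles, rose in 6 of 6 cases. Gbp2 went from 17.0, 17.6 and 12.1 FPKM to 2636, 2622 and 2603 FPKM, a log2 change of 7.32 (SE 0.10, adjusted p = 3.25e-19). It stood at 1229 ± 76.1 FPKM with IFNβ alone and at 310.5 ± 17.8 FPKM with TIC alone (SD, n = 3), and the combined level was higher than each of them (log2 difference 1.09, SE 0.10, adjusted p = 5.82e-08 against IFNβ; log2 difference 3.07, SE 0.10, adjusted p = 3.28e-14 against TIC). Gbp5 shared this order, with 139 FPKM for IFNβ, 46.6 for TIC and 279 for both. Ifi47 instead stood at 305 FPKM with IFNβ alone and 251 FPKM with both, a difference that did not pass the test (log2 difference -0.28, SE 0.18, adjusted p = 0.219).

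Against IFNβ alone, few antiviral genes gained from TIC. In that direct comparison, which used no control library, 3 of 32 antiviral effectors (Rsad2, Oasl and Parp14) were higher with both stimuli and 9 were lower (5 with a pseudocount of 0.1), where 18.6% of all genes were higher and 27.7% lower. Ifit3 stood at 2021, 2258 and 2416 FPKM with IFNβ alone, Irf7 at 2451, 2269.8 and 2289 FPKM and Isg15 at 4017, 3396 and 3586 FPKM. All 3 overlapped the combined libraries, with log2 differences of 0.00 (SE 0.40), -0.11 (SE 0.23) and -0.17 (SE 0.17), none past the test. Parp14 depended on single libraries, with 0.24 and 0.26 on the log2 scale without combined library 2 or 3 and 0.20 and 0.27 without IFNβ library 1 or 2, none past the test. Rsad2 (viperin), which blocks viral replication, was higher with both, at 1642 against 1049 FPKM, while Lgals9 was lower. Lgals9, a galectin that binds the checkpoint receptor TIM-3, stood at 484 FPKM with both, 884 FPKM with IFNβ alone and 1.63 FPKM in controls.

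Transcripts for antigen presentation by MHC class I rose as a whole. All 27 class I chains and partners tested rose, with a median log2 change of 4.45, and so did all 10 genes of the immunoproteasome and peptide loading, with a median of 3.04. B2m, the light chain of every class I molecule, went from 128, 159.5 and 149 to 1111, 1152 and 1086 FPKM, a log2 change of 2.94 (SE 0.10, adjusted p = 5.99e-14). RT1-A2, a classical rat class I heavy chain, rose from 22.9 to 1463 FPKM. RT1 genes are close copies of one another, so a level is better read for the family than for the single gene. Psmb9, an immunoproteasome subunit, rose from 12.2, 13.4 and 10.6 to 402, 453 and 483 FPKM, and Tap1, which carries peptides into the endoplasmic reticulum, rose by 4.32 on the log2 scale.

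Transcripts for class II presentation mostly rose from almost nothing to low levels. Of 9 genes tested, 7 rose and 0 fell, and Ciita, the class II transactivator, and RT1-DMa passed the test in neither direction, though RT1-DMa did as a fall without control library 2 (-0.36 on the log2 scale) or with rescaling to an equal sum (-0.30), and Ciita did as a rise with a pseudocount of 0.1 (1.17). Cd74, the invariant chain of class II molecules, was listed at 0 in all 3 controls and stood at 21.6, 26.3 and 25.4 FPKM with both stimuli, with an adjusted p of 6.99e-15 by limma. IFNγ with TIC gave 305, 321 and 319 FPKM, far above every library with IFNβ and TIC (log2 difference -3.64, SE 0.14, adjusted p = 8.51e-12). RT1-Da and RT1-Ba, class II chains, reached 6.29 and 5.41 FPKM, while Ctss, the protease that trims the invariant chain, rose from 0.0669, 0.135 and 0.599 to 39.8, 42.1 and 35.8 FPKM.

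**Figure D2:**
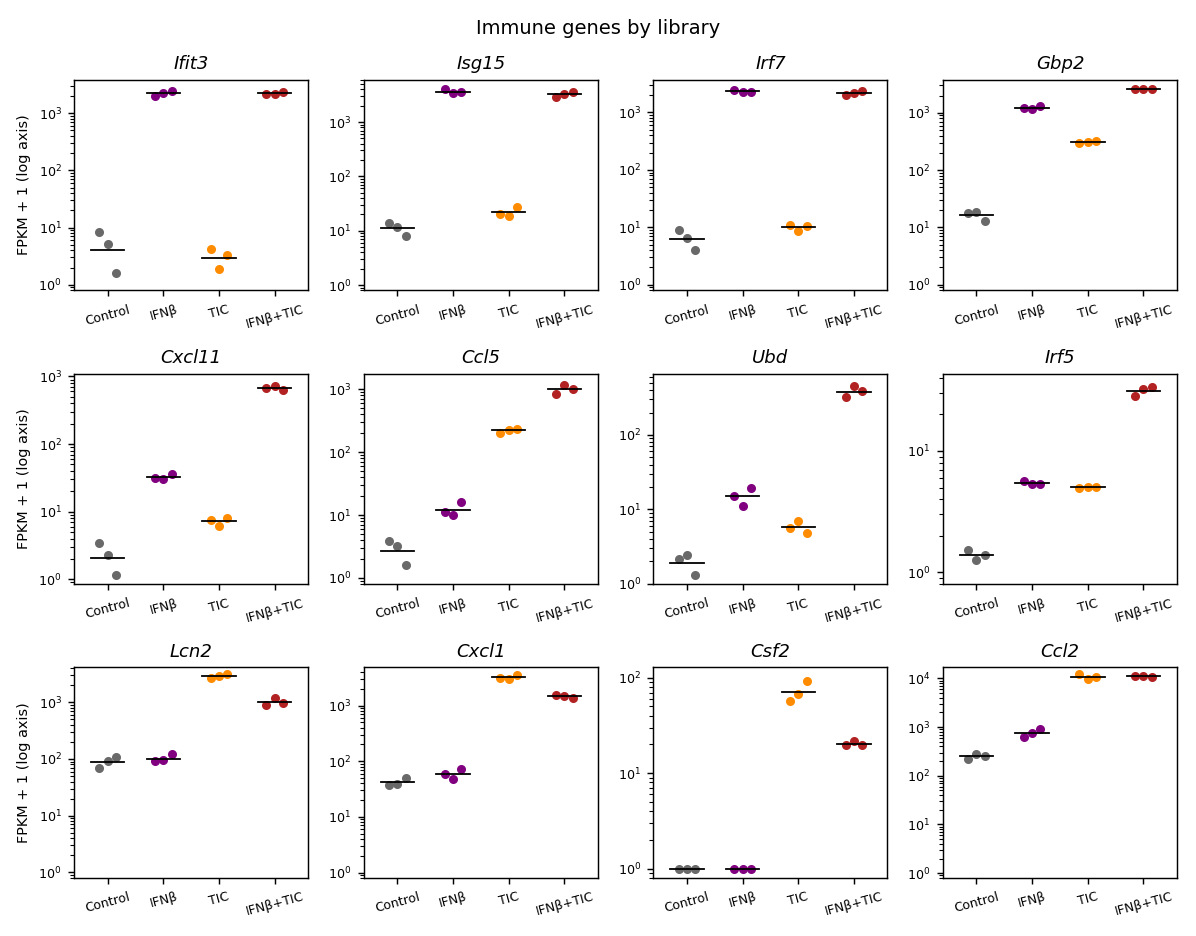
Level of 12 immune genes, as FPKM + 1 on a log axis, in each library of the control, IFNβ, TIC and IFNβ with TIC groups (n = 3 each), with group means of log2(FPKM + 1) as bars. Ifit3, Isg15 and Irf7 overlap between both groups with IFNβ; Cxcl11, Ccl5, Ubd and Irf5 are highest with both stimuli; Lcn2, Cxcl1 and Csf2 are highest with TIC alone.

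Several chemokines that attract T cells reached levels that neither stimulus gave alone. All 11 tested genes of the list of CXCR3 ligands and CC chemokines rose, with a median log2 change of 5.45. Cxcl10, a CXCR3 ligand, went from 36.6, 31.3 and 15.8 to 8854, 8116 and 8802 FPKM, a log2 change of 8.30 (SE 0.26, adjusted p = 1.55e-14). IFNβ alone gave 3601, 4759.5 and 4374 FPKM and TIC alone 61.7, 34.8 and 36.8 FPKM, all below the combined libraries. Cxcl11, another ligand of that receptor, stood at 2.47, 1.28 and 0.174 FPKM in controls, 30.8, 29.9 and 35.5 with IFNβ, 6.48, 5.07 and 7.14 with TIC and 669.8, 726 and 630.1 with both. No library of another of these groups reached a combined one, and the combined level exceeded IFNβ alone by 4.36 (SE 0.24) and TIC alone by 6.56 (SE 0.24) on the log2 scale, with adjusted p-values of 1.97e-10 and 4.06e-13 by limma. Cxcl9, the remaining CXCR3 ligand, had the same order, with 9.98, 8.52 and 10.7 FPKM for IFNβ, 2.44, 1.62 and 2.20 for TIC and 167, 210.3 and 184 for both.

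Ccl5, which attracts T cells and monocytes, came second by rank among the rises. It was at 2.89, 2.18 and 0.58 FPKM in controls and 832, 1152 and 1003 FPKM with both stimuli, a log2 change of 8.52 (SE 0.24, adjusted p = 4.06e-15). TIC alone gave 203, 225 and 233 FPKM and IFNβ alone 10.1, 9.09 and 14.9 FPKM, below every combined library, and the combined level exceeded TIC by 2.16 (SE 0.24) on the log2 scale. Ubd, a ubiquitin-like protein that marks targets for the proteasome, stood at 0.973 FPKM in controls, 14.3 with IFNβ, 4.79 with TIC and 386 ± 67.7 with both (SD, n = 3), again above either stimulus. Ccl2, which attracts monocytes, did not: it stood at 217, 283 and 259 FPKM in controls and 11284, 11216 and 10495 FPKM with both, a log2 change of 5.45 (SE 0.16, adjusted p = 6.66e-15), and TIC alone gave 12540.5, 9797 and 10609.9 FPKM. The combined and TIC libraries overlapped, with a difference of 0.01 (SE 0.16) that did not pass the test.

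Neutrophil chemokines and colony-stimulating factors rose too, but to less than TIC alone gave. All 7 tested rose against control, and all 7 were lower than with TIC alone, where 31.5% of all genes were lower and 9.86% higher. Cxcl1, a CXCR2 ligand, stood at 36.0, 38.2 and 49.8 FPKM in controls, 3144, 3051 and 3523 with TIC and 1547, 1479 and 1382 with both. The rise over control was 5.13 (SE 0.13) and the difference from TIC -1.14 (SE 0.13) on the log2 scale. Csf2 (GM-CSF), a growth factor of myeloid cells, was listed at 0 in every control and IFNβ library and stood at 71.8 FPKM with TIC and 19.4 with both. Cxcl2 and Cxcl3 had 74.1 and 128 FPKM with TIC against 15.7 and 36.4 FPKM with both.

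Lcn2, an iron-carrier-binding acute phase protein and a classic marker of reactive astrocytes, followed the same order. Its level was 68.0, 91.2 and 106 FPKM in controls and 893, 1207 and 981 FPKM with both stimuli, a log2 change of 3.54 (SE 0.14, adjusted p = 4.51e-13). With TIC alone it was 2705, 2959 and 3107 FPKM, and the combined level was lower (log2 difference -1.52, SE 0.14, adjusted p = 1.44e-07). All 3 TIC libraries lay above all 3 combined ones. Of 13 genes of the pan-reactive astrocyte list, 12 rose and 1 fell. Timp1, an inhibitor of metalloproteinases, rose from 162 to 1034 FPKM and Cd44, the hyaluronan receptor, from 38.6 to 212 FPKM.

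Gfap, the astrocyte intermediate filament that marks reactive astrocytes in tissue, was the member of that list that fell. It stood at 422, 419 and 479.7 FPKM in controls and 259, 278 and 323 FPKM with both stimuli, a log2 change of -0.62 (SE 0.08, adjusted p = 5.73e-06). The groups did not overlap. It was 142 ± 11.5 FPKM with IFNβ alone and 218 ± 6.66 FPKM with TIC alone (SD, n = 3), so the combined level was above both (log2 difference 1.01, SE 0.08, adjusted p = 3.10e-08 against IFNβ; log2 difference 0.39, SE 0.08, adjusted p = 0.00131 against TIC). Vim, the filament vimentin, rose from 365, 300.3 and 392 to 623, 674 and 677 FPKM, a log2 change of 0.91. Of the lists once drawn up for astrocytes after endotoxin (A1) and after ischaemia (A2), 7 of 8 A1 and 7 of 9 A2 genes rose, with medians of 1.42 and 1.74, and Cd14, an A2 gene and endotoxin co-receptor, fell by 0.56 on the log2 scale. That fall did not pass the test with median-ratio scaling (-0.38), without combined library 1 (-0.38) or 2 (-0.45), or without control library 1 (-0.49). The A2 gene Ptx3, a soluble pattern receptor, rose from 2.85 to 42.7 FPKM.

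NF-κB subunits and feedback genes rose in 14 of 15 cases, with a median log2 change of 2.01. Nfkbia (IκBα), the inhibitor that NF-κB induces, went from 72.2, 79.1 and 76.7 to 353, 287 and 361 FPKM, a log2 change of 2.11 (SE 0.10, adjusted p = 4.44e-12). TIC alone gave 313, 320.4 and 359 FPKM, and the difference of 0.01 (SE 0.10) did not pass the test. Tnfaip2 rose from 7.40 to 154 FPKM and Birc3, an inhibitor of apoptosis, from 3.42 to 41.8 FPKM. Among interleukins and their receptors, 11 of 16 rose, and the cytokine genes Il12a and Il33 fell, by 1.49 and 0.70 on the log2 scale. Il18bp, a secreted trap for interleukin 18, rose most, from 1.41 to 68.3 FPKM, and Il1r1, the receptor of IL1α, rose from 0.66 to 13.2 FPKM. Among adhesion and checkpoint genes, 6 of 7 rose and Vsir (VISTA) fell, with Vcam1, which holds leukocytes, at 94.7, 96.6 and 91.6 FPKM in controls and 1319.9, 1232 and 1209 FPKM with both. Cd47, the signal against phagocytosis, rose from 42.2 to 203 FPKM.

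A few enzymes of nitric oxide and prostaglandin production rose strongly, while the median log2 changes of their lists were 0.29 and 0.55. Nos2, the inducible nitric oxide synthase, stood at 0.506, 0 and 0.298 FPKM in controls and 73.8, 114 and 78.9 FPKM with both, a log2 change of 6.14 (SE 0.22, adjusted p = 1.41e-13). It was 0, 0 and 0.848 FPKM with IFNβ alone, and the combined level was 6.17 higher on the log2 scale (SE 0.22). Ass1, which recycles citrulline to arginine, was at 2.13 FPKM in controls, 526 with TIC and 191 with both, so lower than with TIC (log2 difference -1.46, SE 0.18, adjusted p = 7.25e-06). Gch1, the first enzyme of tetrahydrobiopterin synthesis, rose by 2.85 on the log2 scale, and 5 of 10 genes of this list rose in all, 3 without control library 1, 3 without combined library 2 and 3 in a fit of only these groups. The smallest rises were of Slc7a2, an arginine transporter, and Gchfr, a regulator of tetrahydrobiopterin synthesis. Neither passed the test without combined library 2 (0.24 and 0.20 on the log2 scale) or control library 1 (0.40 and 0.20). Gchfr also did not pass without combined library 1 (0.38) or control library 2 (0.39). The authors' deposited table does not call Slc7a2 (log2 change 1.01, adjusted p = 0.334) but calls Gchfr higher (log2 change 0.76, adjusted p = 0.001175). Ptges, which makes prostaglandin E2, rose from 1.32, 1.81 and 0.977 to 115, 172 and 124 FPKM, below the 282 ± 28.1 FPKM of TIC alone (SD, n = 3; log2 difference -1.05, SE 0.19, adjusted p = 3.10e-04). Ptgs2 (COX-2) rose to 5.59, 8.89 and 4.17 FPKM from 0.453, 0.136 and 0.442 FPKM, again below TIC alone (25.6 FPKM). In the prostaglandin list 6 of 9 rose, and Ptgds, which makes prostaglandin D2 in the brain, fell: it stood at 3.08, 3.37 and 3.59 FPKM in controls and was listed at 0 in all 3 combined libraries. Without control library 3, 2 members fell.

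Complement genes rose in 9 of 10 cases and fell in 1, with a median log2 change of 3.82. Cfb, factor B of the alternative pathway, went from 1.03, 1.19 and 0.928 to 442, 471 and 537 FPKM, a log2 change of 7.88 (SE 0.15, adjusted p = 1.53e-17). The classical proteases C1s and C2 rose from 8.20 to 442 FPKM and from 2.70 to 167 FPKM. Serping1, the C1 inhibitor, stood at 10.4, 17.1 and 15.7 FPKM in controls and 294, 338 and 342 FPKM with both, above IFNβ alone (100.3 FPKM) and TIC alone (85.0 FPKM). C3, the central component, rose only from 0.923, 0.965 and 1.19 to 4.22, 6.82 and 5.39 FPKM, a log2 change of 1.66 (SE 0.17, adjusted p = 1.49e-07), and was lower than the 14.7 ± 2.05 FPKM of TIC alone (SD, n = 3; log2 difference -1.28, SE 0.17, adjusted p = 1.01e-05). The member that fell was Cd59, an inhibitor of the membrane attack complex. It stood at 29.6, 36.8 and 34.7 FPKM in controls and 3.09, 3.34 and 2.53 FPKM with both, a log2 change of -3.12 (SE 0.14, adjusted p = 3.04e-12).

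Genes of astrocyte identity and function fell broadly, though not all of them. Of 24 identity genes tested, 18 fell and 2 rose, with a median log2 change of -1.39 against -0.20 over all genes. S100b, a calcium-binding protein, stood at 1304, 1307 and 1443 FPKM in controls and 295, 303 and 328 FPKM with both, a log2 change of -2.13 (SE 0.06, adjusted p = 3.55e-15). Ndrg2 stood at 99.1, 112 and 89.0 FPKM in controls and 7.90, 26.8 and 14.4 FPKM with both, so the combined libraries differed among themselves but lay below all controls. Aqp4, the water channel of astrocytes, was at 32.5, 34.3 and 36.5 FPKM in controls and 36.4, 48.2 and 39.8 FPKM with both, and the log2 change was 0.25 (SE 0.13, adjusted p = 0.109), so it did not pass the test. A single combined library lay within the control range. With median-ratio scaling Aqp4 was called higher (0.47 on the log2 scale).

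Slc1a2 (GLT-1), the main glutamate transporter of the forebrain, was at 28.6, 25.9 and 26.1 FPKM in controls and 19.6, 24.7 and 20.4 FPKM with both, a log2 change of -0.31 (SE 0.08, adjusted p = 0.00392). The groups did not overlap. Gja1 (connexin 43), the gap junction channel, was at 445, 413 and 411 FPKM in controls and 343, 308 and 337 FPKM with both, a log2 change of -0.36. Both are near the median of all genes, and with median-ratio scaling neither passed the test (-0.09 and -0.13). The authors' deposited table calls neither, at 0.33 (adjusted p = 0.142) for Slc1a2, the opposite sign, and -0.11 (adjusted p = 0.308) for Gja1. The members that rose were Id3, an inhibitor of basic helix-loop-helix factors that rose from 15.2 to 116 FPKM, and Aldh1l1, a folate enzyme used as an astrocyte marker that rose from 52.8 to 84.5 FPKM.

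**Figure D3:**
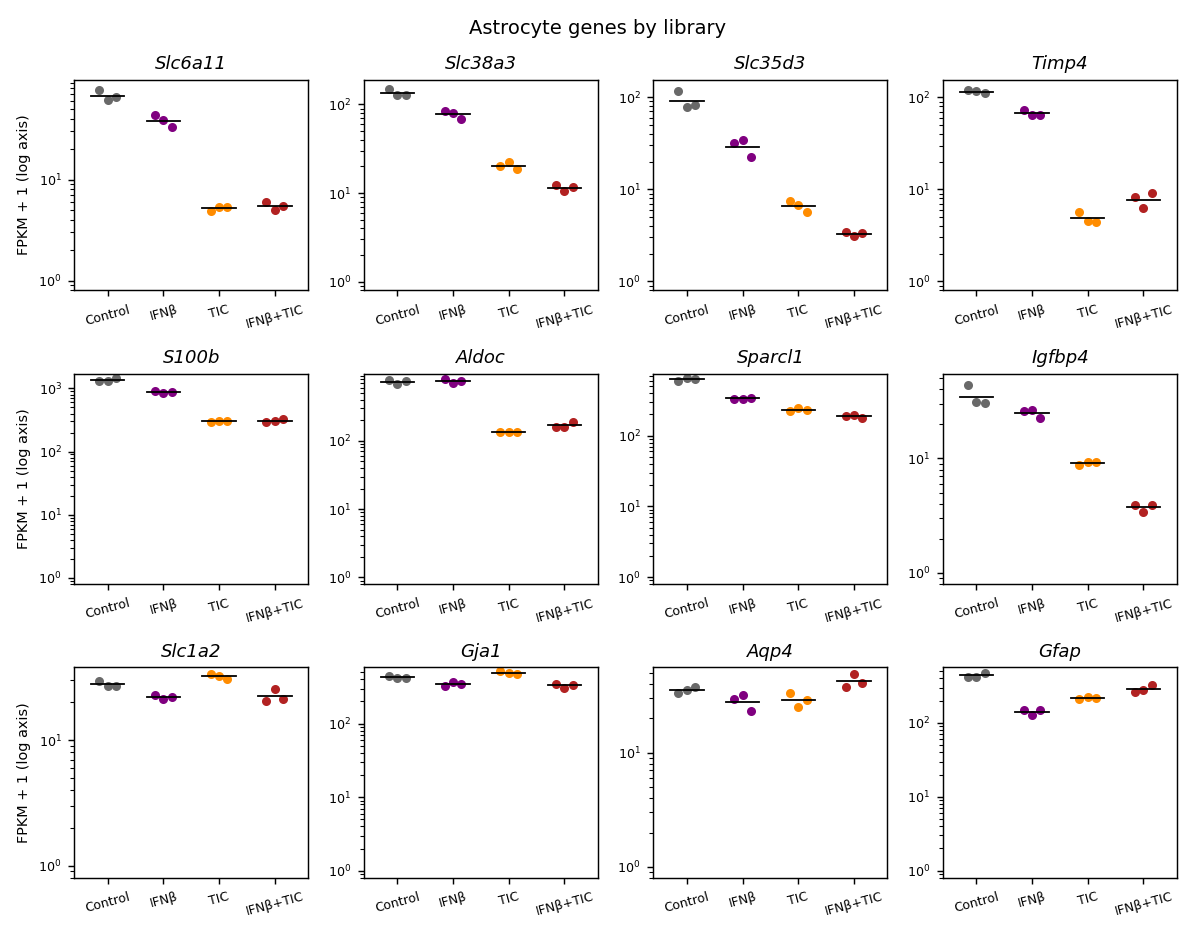
Level of 12 astrocyte genes, as FPKM + 1 on a log axis, in each library of the control, IFNβ, TIC and IFNβ with TIC groups (n = 3 each), with group means of log2(FPKM + 1) as bars. Slc6a11, Slc38a3, Slc35d3 and Timp4 are low in both groups with TIC, Aqp4 overlaps its control range, and Gfap with both stimuli lies between the control and the single treatments.

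Genes of transmitter uptake were among those that fell. Of 10 genes of glutamate and GABA uptake and handling, 7 fell and 2 rose, where 42.8% of all genes fell and 19.3% rose. Slc1a1, a glutamate transporter, was among those that rose, by 0.91 on the log2 scale. Slc6a11 (GAT-3), the astrocyte GABA transporter, stood at 76.1, 60.2 and 65.1 FPKM in controls and 4.97, 4.02 and 4.45 FPKM with both, a log2 change of -3.63 (SE 0.13, adjusted p = 9.47e-14). Slc38a3 (SNAT3), which exports glutamine, went from 150.5, 128 and 128 to 11.2, 9.65 and 10.7 FPKM, a log2 change of -3.56 (SE 0.10, adjusted p = 6.30e-15). Slc6a9 (GlyT1), a glycine transporter, fell from 6.72 to 1.57 FPKM. The largest fall among the genes named by rank was of Slc35d3, from 116, 76.7 and 80.6 to 2.42, 2.13 and 2.38 FPKM, a log2 change of -4.78 (SE 0.17, adjusted p = 1.41e-13). Btbd17 fell from 53.1 to 2.43 FPKM, Camk1g, a calmodulin-dependent kinase, from 57.0 to 3.12, Cdh10, a cadherin, from 20.0 to 0.947, and Ntm, a cell adhesion protein, from 20.4 to 1.41 FPKM. Tril, a co-receptor of Toll-like receptors, fell from 103, 85.8 and 95.5 to 8.64, 7.15 and 10.3 FPKM.

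The single stimuli gave different levels of these genes. Slc6a11 stood at 37.4 ± 5.01 FPKM with IFNβ alone and 4.20 ± 0.261 FPKM with TIC alone (SD, n = 3). The combined level differed from IFNβ by -2.80 on the log2 scale (adjusted p = 1.37e-11) and from TIC by 0.07 (SE 0.13), which did not pass the test. Slc38a3 was lower with both than with either, at 76.8 FPKM for IFNβ and 19.6 FPKM for TIC. Of the identity list, 16 of 24 genes were lower than with IFNβ alone, where 27.7% of all genes were, and Aqp4 and Id3 were higher. Against TIC alone, 5 were lower (Slc1a2, Gja1, Sparcl1, Mlc1 and the glutamine synthetase gene Glul) and 9 higher, where 31.5% of all genes were lower and 9.86% higher, and with median-ratio scaling 3 were lower. Mlc1 did not pass the test without combined library 1 (-0.21 on the log2 scale) or 2 (-0.26) or TIC library 2 (-0.20) or 3 (-0.23). Against IFNγ with TIC, 15 of 24 were higher and 0 lower (1 without combined library 2), where 9.72% of all genes were higher and 12.7% lower.

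Factors that astrocytes secrete for synapses or use in engulfment moved in both directions. Of 19 tested, 12 fell and 5 rose, a balance near that of all genes (42.8% and 19.3%), the rises being Thbs1, Gpc4, Axl, Mertk and Thbs2, the last not without control library 1 (0.44 on the log2 scale). Sparcl1 (hevin), which promotes synapse formation, stood at 589.8, 644 and 640.3 FPKM in controls and 192, 193 and 176 FPKM with both, a log2 change of -1.74 (SE 0.06, adjusted p = 3.35e-14). IFNβ alone gave 336 FPKM and TIC alone 232 FPKM, each above the combined level, though with median-ratio scaling the difference from TIC did not pass the test. Mfge8, a bridge between dying cells and integrins, fell from 177 to 47.0 FPKM, and Nlgn3, an adhesion protein of synapses, from 60.9 to 23.5 FPKM. Thbs1, a synaptogenic matrix protein, rose from 0, 0.18 and 0.345 to 2.28, 2.36 and 4.81 FPKM, and Axl and Mertk, receptors of engulfment, by 1.07 and 0.39 on the log2 scale.

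Genes of cholesterol synthesis fell in 18 of 25 cases and rose in 0, with a median log2 change of -0.58 against -0.20 over all genes. Of all genes 42.8% fell and 19.3% rose, and the lipid lists here are read against these shares. Lss, which forms the sterol rings as lanosterol, went from 244, 223 and 259 to 100.1, 108 and 114 FPKM, a log2 change of -1.16 (SE 0.07, adjusted p = 7.18e-11). Hmgcs1, an early enzyme of the pathway, went from 1462, 1349 and 1378 to 924, 808 and 851 FPKM, a log2 change of -0.70. IFNβ alone gave 111, 114 and 117 FPKM of Lss, which overlapped the combined libraries and did not differ from them past the test (log2 difference -0.09, SE 0.07, adjusted p = 0.294). TIC alone gave 211, 224 and 232 FPKM. Against it 24 of 25 genes of the list were lower, where 31.5% of all genes were. With median-ratio scaling, 15 genes of the list fell and 4 rose, and without control library 3, 1 rose. Among genes of fatty acid synthesis and lipid efflux, 10 of 17 fell, Acly (not without control library 2, at 0.17 on the log2 scale) and Abcg1 rose, and 4 rose with median-ratio scaling and 4 without control library 3. Lpl, lipoprotein lipase, fell from 9.50 to 0.456 FPKM and Fasn, fatty acid synthase, from 171 to 72.8 FPKM, whereas the cholesterol exporter Abcg1 rose from 0.11, 0.144 and 0 to 2.99, 2.95 and 3.42 FPKM.

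Glycolytic genes split, with 6 of 20 rising and 10 falling, shares not far from those of all genes (19.3% and 42.8%). The falls held the brain form of aldolase, Aldoc, from 765, 677 and 743 to 156, 160.5 and 186 FPKM, and Pkm, the pyruvate kinase gene, from 1245 to 568 FPKM. Antioxidant genes split as well, at 6 up and 6 down of 19, to be read against the same shares of all genes. Without control library 1, 3 were up, and in a fit of only these groups also 3. Sod2, the mitochondrial superoxide dismutase, rose most, from 185 to 924 FPKM. In the endoplasmic reticulum stress list, 8 of 18 rose, and Herpud1 and Atf6 fell, where 19.3% of all genes rose and 42.8% fell. Ddit3 (CHOP), a transcription factor of the integrated stress response, stood at 13.1, 21.4 and 22.5 FPKM in controls and 147, 158 and 164 FPKM with both, a log2 change of 3.01 (SE 0.16, adjusted p = 2.81e-11). Hspa5 (BiP), the main chaperone of that compartment, rose by 0.84 and Herpud1, of its degradation pathway, fell by 1.05 on the log2 scale.

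**Figure D4:**
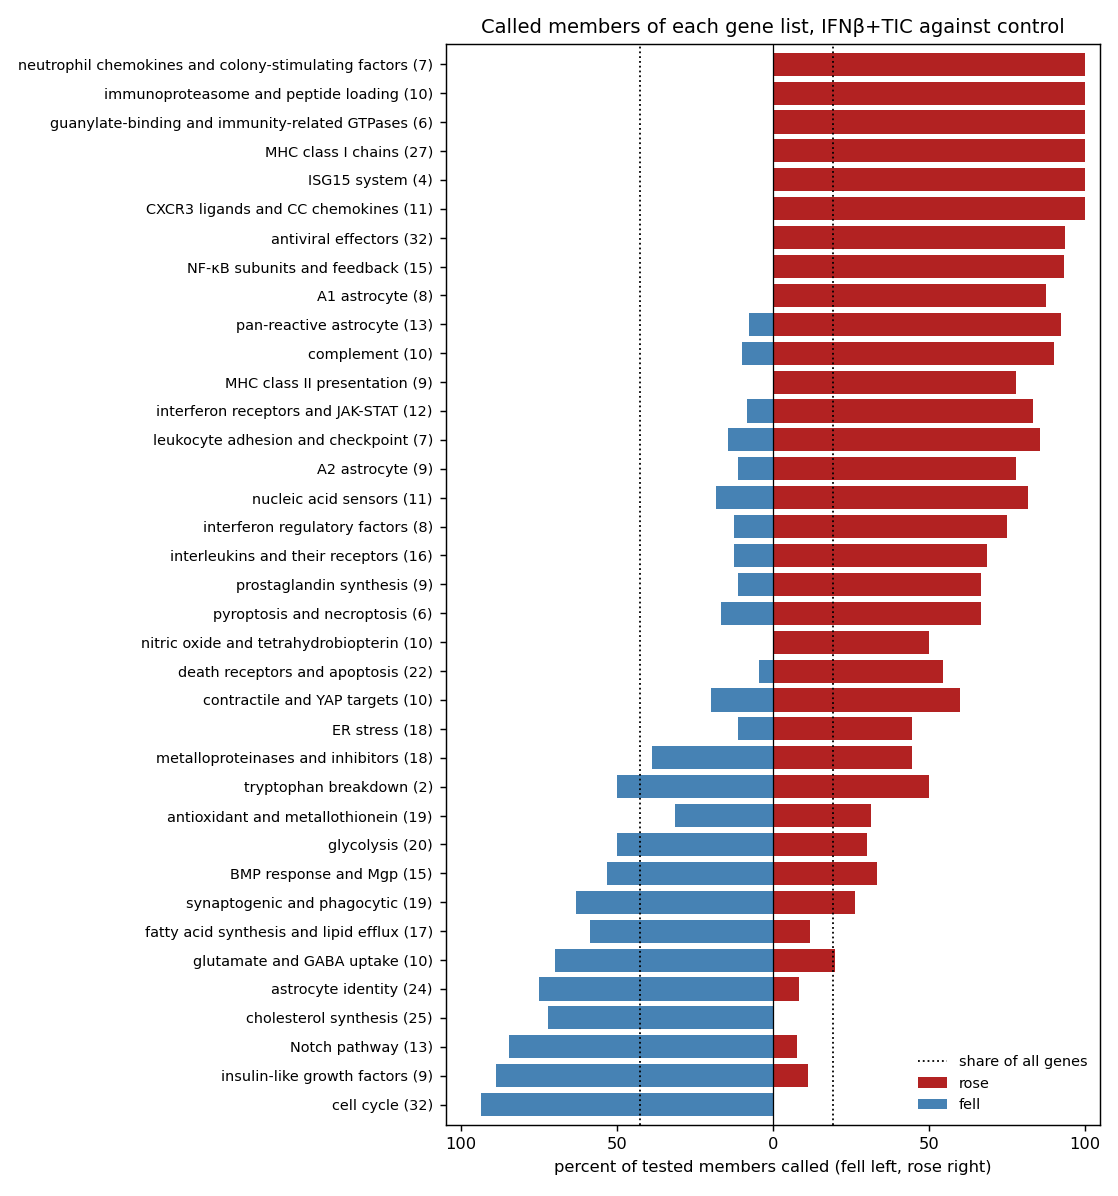
Counts of called genes in 37 lists of genes for IFNβ with TIC against control, as percent of the tested members that rose (right) or fell (left), with the number tested beside each list. The dotted lines mark the share of all 10296 genes that rose (19.3%) or fell (42.8%); immune lists lie at the top right and cell cycle, insulin-like growth factor and Notch lists at the bottom left.

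Genes of the cell cycle fell almost throughout, with 30 of 32 called lower, Cdkn1a, a cell cycle inhibitor, and Tyms called in neither direction (Cdkn1a rose with median-ratio scaling, by 0.52, in a fit of only these groups, by 0.30, and with library weights, by 0.32), and a median log2 change of -1.30. Top2a, the DNA topoisomerase of dividing cells, stood at 14.6, 11.0 and 7.76 FPKM in controls and 2.26, 1.09 and 1.04 FPKM with both, a log2 change of -2.30 (SE 0.20, adjusted p = 2.48e-08). Rrm2, a subunit of ribonucleotide reductase, fell from 20.2 to 3.79 FPKM and Ccna2, cyclin A2, from 17.2 to 3.35 FPKM. IFNβ alone left Top2a at 3.50 FPKM and TIC alone at 0.948 FPKM, and the combined level was lower than the first (log2 difference -0.90, SE 0.20, adjusted p = 0.00131) while its difference from the second did not pass the test (log2 difference 0.30, SE 0.20, adjusted p = 0.244).

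Growth factor and patterning pathways are read against 42.8% of all genes that fell and 19.3% that rose. Of 13 Notch pathway genes, 11 fell and Rbpj, the nuclear effector, rose by 0.26 on the log2 scale (0.18 without control library 3, which did not pass), and with median-ratio scaling 7 fell and 2 rose. Without combined library 2, 7 fell. The pathway's targets Nrarp and Hey1 fell from 32.1 to 9.58 FPKM and from 20.8 to 7.68 FPKM, and the receptor Notch2 from 15.7 to 6.07 FPKM. Of 9 genes of the insulin-like growth factor system, 8 fell and 1 rose. Igfbp4, a binding protein of these factors, stood at 43.0, 30.3 and 29.2 FPKM in controls and 2.95, 2.39 and 2.89 FPKM with both, a log2 change of -3.22 (SE 0.15, adjusted p = 3.79e-12). It was lower than with TIC alone (8.11 FPKM) and than with IFNβ alone (23.9 FPKM). Igfbp3, another binding protein, was the one that rose, from 53.3 to 309.5 FPKM. Of 15 BMP genes, 5 rose (Bmp2, Bmp6, Id1, Id3 and Id4) and 8 fell, 5 with median-ratio scaling, with the ligands Bmp6 rising from 0.842 to 5.33 FPKM and Bmp7 falling from 3.39 to 0.542 FPKM.

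Mgp, matrix Gla protein, which binds BMPs, depended on single libraries. It stood at 74.3, 80.0 and 71.9 FPKM in controls and at 14.1, 75.3 and 24.5 FPKM with both, so 1 of the 3 combined libraries lay within the control range. The log2 change was -1.31 (SE 0.46, adjusted p = 0.0198). Without combined library 1 the log2 change was -0.79 and without combined library 3 it was -1.17, and neither passed the test. Without combined library 2 it was -1.96. The authors' deposited table gives Mgp a log2 change of -0.67 with an adjusted p of 0.356.

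Matrix enzymes and their inhibitors split, with 8 of 18 rising and 7 falling, where 19.3% of all genes rose and 42.8% fell. Timp4, an inhibitor of metalloproteinases, stood at 119, 116 and 109.9 FPKM in controls and 7.19, 5.21 and 8.19 FPKM with both, a log2 change of -3.90 (SE 0.12, adjusted p = 2.87e-14). Mmp15, a membrane-bound enzyme, fell from 67.6 to 9.61 FPKM, while the secreted Mmp9 rose from 0.328, 0.47 and 0.456 to 7.99, 8.40 and 8.66 FPKM. With TIC alone Mmp9 stood at 54.9, 66.3 and 61.5 FPKM, above every combined library (log2 difference -2.72, SE 0.10, adjusted p = 5.11e-13). Of 10 contractile genes and targets of the coactivator YAP, 6 rose, while Myl9, a myosin light chain, and Tgfb2, a growth factor, fell.

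Genes of cell death rose in part. In the apoptosis list 12 of 22 rose and Tnfrsf1a, the main TNFα receptor, fell by 0.80 on the log2 scale. Of all genes 19.3% rose and 42.8% fell. In the list of pyroptosis and necroptosis 4 of 6 rose (Zbp1, Pycard, Ripk3 and Gsdmd) and Gsdme fell. Casp1, the inflammasome protease, was listed at 0 in all 3 controls and stood at 16.6, 14.8 and 11.9 FPKM with both. Tnfsf10 (TRAIL), a death ligand, stood at 0, 0.085 and 0 FPKM in controls and 6.72, 5.86 and 6.80 FPKM with both. Casp12, a caspase of the inflammatory group, stood at 0, 0 and 0.478 and 20.2, 13.9 and 12.2 FPKM. Cflar, which holds caspase-8 in check, rose from 5.23 to 43.6 FPKM. Zbp1, a sensor of Z-form nucleic acids, stood at 0.16, 0 and 0 FPKM in controls and 9.75, 9.72 and 8.77 FPKM with both, and Gsdme, a pore-forming gasdermin, fell from 20.1 to 5.68 FPKM. Of the tryptophan pathway, the 2 genes tested moved apart: Wars, the tryptophanyl-tRNA synthetase, rose from 59.0 to 103 FPKM and Kyat1, which makes kynurenic acid, fell from 26.1 to 9.17 FPKM.

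Markers of other brain cells were few and moved in both directions. For oligodendrocyte precursors 4 of 8 listed markers were tested, the others not being analysed here, and their summed level was 875 to 1116 FPKM in the controls and 234 to 286 FPKM in the combined libraries. Olig1 and Olig2, which cultured astrocytes can also express, made up most of it and fell from 789 to 197 FPKM and from 177 to 59.0 FPKM. Pdgfra, the receptor that defines these precursors, fell from 2.72 to 1.40 FPKM, and Cspg4 (NG2) rose by 0.41 on the log2 scale. Cspg4 did not pass the test without any 1 of the 3 combined libraries (0.42, 0.36 and 0.44) or without control library 1 (0.42) or 3 (0.30). For microglia and macrophages 5 of 12 markers were tested, and their sum was 106 to 128 FPKM in controls and 219.7 to 252 FPKM with both, higher through Cd68, a lysosomal protein, at 42.6 and 188 FPKM. Aif1, Fcer1g and Tyrobp, which mark these cells more closely, passed the test in neither direction. With both stimuli Aif1 stood at 0.939, 0.538 and 1.0 FPKM, Fcer1g at 1.87, 2.15 and 2.22 FPKM and Tyrobp at 0, 1.20 and 0.983 FPKM, and each overlapped the controls.

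The summed markers of neurons were 40.6 to 50.2 FPKM in controls and 15.8 to 18.4 FPKM with both, those of oligodendrocytes 137 to 173 and 154 to 185 FPKM, those of pericytes and fibroblasts 33.8 to 50.0 and 50.6 to 59.5 FPKM, those of ependymal cells 2.17 to 3.58 and 5.75 to 9.24 FPKM, and Flt1, the only endothelial marker tested, 0.111 to 0.163 and 1.55 to 2.34 FPKM. Of 4 neuronal genes Map2 and Snap25 fell and Syt1 rose, none of 4 oligodendrocyte genes passed the test, Pdgfrb and Tagln rose of 5 pericyte genes, and Foxj1 rose of 2 ependymal genes. Pdgfrb did not pass the test without combined library 2 (0.44 on the log2 scale) or 3 (0.42) or control library 3 (0.31), and Flt1 rose by 1.43. The part of the make-up of the cultures in the results was not tested.

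Set against TIC alone, the combined treatment left 1015 genes higher (9.86%) and 3248 lower (31.5%), with a log2 difference of at least 1 in 321 (3.12%) and 233 (2.26%). With median-ratio scaling 1609 were higher and 1698 lower. The highest differences named by rank were of Ifit3, Ifit1, Ifit2, Rsad2 and Usp18, all antiviral. Among the lowest were Wnt10a, a Wnt ligand, at 24.5, 26.6 and 21.1 FPKM with TIC and 1.57, 2.16 and 2.40 FPKM with both (log2 difference -3.05, SE 0.14, adjusted p = 8.18e-12), Pcp4, a calmodulin-binding protein, at 26.2 and 2.52 FPKM, and Gchfr at 118, 114 and 130.3 FPKM with TIC and 16.6, 21.5 and 14.1 FPKM with both. In controls Gchfr stood at 10.5, 13.8 and 15.8 FPKM, where 1 library overlapped the combined ones.

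Set against IFNβ alone, 1911 genes were higher (18.6%) and 2847 lower (27.7%), with a log2 difference of at least 1 in 465 (4.52%) and 461 (4.48%), and with median-ratio scaling 2408 were higher and 2347 lower. The highest included Ccl5, Nos2, Ptges, Ass1 and Cxcl3, and the lowest Camk1g, Nrgn, a neuronal calmodulin-binding protein, Btbd17, Slc35d3 and Timp4. Nrgn stood at 63.8, 57.2 and 57.5 FPKM with IFNβ alone, 4.65, 4.61 and 5.92 FPKM with both and 60.6, 44.7 and 53.2 FPKM in controls.

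Of the direct comparisons, that with IFNγ and TIC had the fewest called genes, 22.4% against 41.4% for TIC and 46.2% for IFNβ. Between the groups 1001 genes were higher with IFNβ (9.72%) and 1304 with IFNγ (12.7%), with a log2 difference of at least 1 in 191 (1.86%) and 127 (1.23%), and with median-ratio scaling the counts were 1206 and 1046. Of antiviral effectors 28 of 32 were higher with IFNβ and TIC, and of class II genes 8 of 9 were lower and Ctss was higher. Irf7 stood at 123, 134 and 134 FPKM with IFNγ and TIC, far below the combined IFNβ libraries (log2 difference 4.04, SE 0.23, adjusted p = 9.54e-10). Lgals9, Isg20, a nuclease that degrades viral RNA, and the chemokine Ccl12 were at 27.3, 4.76 and 3.37 FPKM with IFNγ and TIC against 484, 72.6 and 57.2 FPKM with IFNβ and TIC. Cxcl10 and Ccl4, chemokines, were also higher with IFNβ and TIC, while Cxcl9, Ccl5 and Ccl19 were lower. Ubd was higher with IFNγ and TIC, at 2780.5, 3104 and 3109 FPKM, and so was Irf8, a factor of myeloid cells, at 23.3, 21.8 and 23.2 FPKM against 0.45, 0.328 and 0.442 FPKM.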

How the data were processed

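RNA of immunopanned rat astrocytes was prepared with an Agilent kit and made into SMART-seq HT and Nextera XT libraries sequenced on a NovaSeq6000, per the labels' protocols. The submitters' processing notes name HISAT2, StringTie, DESeq2 and the build mm10, although the identifiers are those of rat Ensembl genes; no source used here gives versions or the annotation. The authors deposited FPKM per gene and library, and for each comparison their own log2 fold changes and p-values after adjustment, which were read only as the authors' table. Depth is unknown, because FPKM values keep no counts. Of 10434 rows, 3 without a gene name were left out (at most 0.012% of a library), and 15 symbols that had become numbers were kept under their Ensembl identifier.

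A single limma model (version 3.58.1, R 4.3.3) with a mean for each of the 6 groups and a trended prior variance was fitted to log2(FPKM + 1) of all 18 libraries, over the 10296 genes that reached 1 FPKM in 3 or more libraries, with two-sided tests and Benjamini-Hochberg adjustment over all of them. It was checked on simulated data. Genes were named by rule: the 15 highest and 15 lowest log2 changes among called genes with a change of 1 or more, a group mean that reached 5 FPKM and libraries that did not overlap; a set list of markers; up to 4 called members of each of 37 lists and 7 marker lists; and the 6 highest and 6 lowest of each direct comparison; genes that complete a small count were named after their values were seen. Some genes that the rule names are not reported here, though they count in their lists. Members and lists were chosen with earlier results of these data known. Genes of the RT1, Ifit, Oas and Gbp families have near-identical copies among which reads may be split. Promoters are from RefSeq (GRCr8), matched by unique symbol. Alternatives were another pseudocount, no filter, median-ratio scaling, rescaling to an equal sum, only the groups compared, library weights, a replicate block, no variance trend and leaving out each library.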

Additional observations from a re-analysis of the deposited data

How the results depend on the processing

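Scaling and the pseudocount moved the counts most. With median-ratio scaling, genes higher against control numbered 3106 in place of 1987, those higher against TIC 1609 in place of 1015, and those lower against TIC 1698 in place of 3248; this scaling sets the median of all genes near 0 by construction. With a pseudocount of 0.1, genes lower by a log2 value of 1 or more numbered 373 in place of 233 against TIC and 735 in place of 461 against IFNβ, and those higher by as much against IFNγ with TIC numbered 311 in place of 191, since a smaller pseudocount widens the changes of low genes. Under the other alternatives run, the counts of called genes stayed within 1.5 times.

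Leaving out single libraries gave 1792 to 1893 genes higher and 4058 to 4206 lower against control. Removing 28 genes whose FPKM jumped between near 0 and high values within the control or the combined group gave 1994 and 4429. This alternative was chosen after seeing the data. Genes that jumped only within other groups, such as Mx1, were kept, and so was Ifnar1. For control and combined libraries of the same replicate number, deviations from the group means correlated at 0.072, -0.057 and 0.133. Values near 0 show no shared deviation, but cannot tell whether libraries of like number were prepared together. With the replicate block 1990 genes were higher and 4431 lower against control.

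Some differences near 0 changed sign without passing the test. Aif1 was at 0.02 against control with median-ratio scaling and between -0.35 and 0.32 without single libraries. Tyrobp was at 0.04 with that scaling and with library weights, and between -0.41 and 0.32 without single libraries. Against TIC, Ccl2 ranged from -0.07 to 0.11 and Nfkbia from -0.05 to 0.11 without single libraries, and Nfkbia was at -0.07 with library weights. The causes were not tested. Among genes named in the text, a pseudocount of 0.1 ended the calls of Lgals9 and Oasl against IFNβ and of Ctss, Ccl4 and Ccl5 against IFNγ with TIC; antiviral effectors lower than with IFNβ then numbered 5 in place of 9, and ISG15 system genes lower than with IFNβ 1 in place of 2. Aqp4 passed the test as higher against control with library weights (0.35), and Mgp lost its call with them (-0.80) and with median-ratio scaling (-1.08). Depth is unknown for these values, so the limit that counting sets on genes at low FPKM could not be given.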
